A study of Mus musculus with 12 samples.

Results

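A set of 8 genes of prostaglandin signalling, out of 20632 gene symbols counted, was followed in gonadal (peri-uterine) white fat of pregnant mice. They are the receptor genes Ptger3, Ptger4 and Ptgfr and the synthesis genes Ptgs1, Ptgs2, Ptges, Ptgis and Ptgds. They were taken by symbol from every library. The set was put together after Ptger3 had been seen lower in vehicle-treated knockouts than in vehicle-treated wild types, so the values of that comparison are given as a description without a test. Of the set, 7 were among the 12175 genes with enough counts to test. Ptgs2, with 7 counts in all 12 libraries together, was not.

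The tissue was taken at E17.5 from 3 groups, with 4 libraries in each. KO Treg mice were labelled as knockouts of Tnfrsf11a, the gene of the receptor RANK, by a Foxn1 Cre, with Treg as their treatment, a usual abbreviation for regulatory T cells. KO vehicle mice had the same genotype and received vehicle. WT vehicle mice lacked the Cre and received vehicle. All mice were pregnant, and no wild types given Treg are among the samples. Foxn1 is a gene of thymic and skin epithelium and not of fat. It had 0 counts in every library, and Tnfrsf11a had 44 to 90 counts (4.66 to 10.6 CPM, counts per 1000000 counts of the library), which gives no check of a deletion made in other tissues.

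Each library is a 3′ mRNA-seq count table, with 6583263 to 8746946 counts in KO Treg, 8350348 to 9617503 in KO vehicle and 5551967 to 12972655 in WT vehicle. The fat marker Adipoq, the adiponectin gene, was at 3881 to 5993 CPM. A few libraries stood apart: placental transcripts were present in KO Treg 2 and KO vehicle 1 (up to 336 counts of Tpbpa), and Ucp1, the brown-fat uncoupling protein gene, ranged from 1 to 24468 counts, with the most in KO vehicle 2, KO vehicle 3 and WT vehicle 1. The numbers in the sample titles fall into 2 runs, here the lower (8 libraries) and the higher number series (4 libraries). The higher one holds KO Treg 3 and 4 and WT vehicle 3 and 4 and no KO vehicle mouse. Because the tissue was sequenced in bulk, fewer cells of a type and less RNA per cell cannot be told apart in any value below.

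Prostaglandins are short-lived lipids made from arachidonate. Phospholipases release arachidonate from membranes, the cyclooxygenases encoded by Ptgs1 and Ptgs2 turn it into prostaglandin H2, and separate synthases make prostaglandin E2 (Ptges), prostacyclin (Ptgis) and prostaglandin D2 (Ptgds). In fat cells prostaglandin E2 acts mainly through EP3, the product of Ptger3, a receptor coupled to the inhibitory G protein Gi that lowers cyclic AMP and so restrains lipolysis. EP4, encoded by Ptger4, couples to the stimulatory G protein and raises cyclic AMP, and the prostaglandin F2α receptor encoded by Ptgfr couples to Gq.

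Ptger3 and Ptges, the receptor and the synthase with the widest differences among libraries at well-counted levels, lie at chr3:157566892-157645888 on the plus strand and chr2:30889471-30929863 on the minus strand (mm10, GENCODE M21). No exon of another annotated gene overlaps either. Their RefSeq promoter windows (GRCm38.p6, 250 bases before to 50 after the start, chr3:157566626-157566925 plus and chr2:30903248-30903547 minus) are shown 5′ to 3′ on the gene's strand. The Ptges window lies inside the GENCODE span of that gene, whose 5′ end on the minus strand is at 30929863. GC boxes are in capitals (GGGCGG, or its reverse complement CCGCCC). These 2 were chosen after the values were seen, because the levels of both genes went together with those of the fatty acid synthesis genes described further on.
Ptger3: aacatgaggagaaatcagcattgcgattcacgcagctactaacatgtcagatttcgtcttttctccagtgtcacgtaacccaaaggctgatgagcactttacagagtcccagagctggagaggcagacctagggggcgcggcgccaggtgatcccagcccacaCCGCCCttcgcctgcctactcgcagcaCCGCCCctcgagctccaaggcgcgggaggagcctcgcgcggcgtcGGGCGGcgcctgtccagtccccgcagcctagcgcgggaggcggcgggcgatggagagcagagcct
Ptges: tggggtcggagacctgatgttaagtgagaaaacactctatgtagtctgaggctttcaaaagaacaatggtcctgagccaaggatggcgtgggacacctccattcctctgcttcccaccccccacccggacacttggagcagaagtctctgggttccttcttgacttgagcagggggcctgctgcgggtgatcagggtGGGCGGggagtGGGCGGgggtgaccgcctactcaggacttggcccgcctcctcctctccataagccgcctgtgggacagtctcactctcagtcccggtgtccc
The Ptger3 window held 3 GC boxes, starting 87, 60 and 15 bases before the start, and the Ptges window held 2, starting 53 and 42 bases before it. A GC box is found in 35.7% of the 32851 RefSeq promoter windows of this length, counting both strands. The other letters searched on both strands were TATAAA (13.6% of windows), CCAAT (37.4%), the E-box CACGTG (7.15%), TTGCNNAA (10.8%), the cyclic AMP response element TGACGTCA (1.79%), its shorter form TGACG (20.8%, contained in the full element) and TCACNCCAC, a site for sterol regulatory element binding proteins (1.24%), and none of them was in either window. RefSeq windows were matched for 7 of the 8 genes. GC boxes were also in the windows of Ptger4, Ptgfr and Ptgs2, but not in those of Ptgs1 and Ptgds. They are therefore not particular to Ptger3 and Ptges.

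Among the receptors, Ptger3 was at 505, 182, 228 and 310 CPM in KO Treg 1 to 4, at 98.7, 94.6, 130 and 103 CPM in KO vehicle 1 to 4, and at 278, 416, 389 and 209 CPM in WT vehicle 1 to 4. Every KO vehicle library lay below every KO Treg and every WT vehicle library. KO Treg and WT vehicle overlapped over most of their ranges. The KO vehicle libraries were also close to each other, 1.37-fold from lowest to highest, whereas KO Treg spanned 2.77-fold and WT vehicle 1.99-fold. Group means were 306 ± 143 CPM in KO Treg, 106 ± 15.8 CPM in KO vehicle and 323 ± 96.8 CPM in WT vehicle (SD, n = 4 each).

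**Figure D1:**
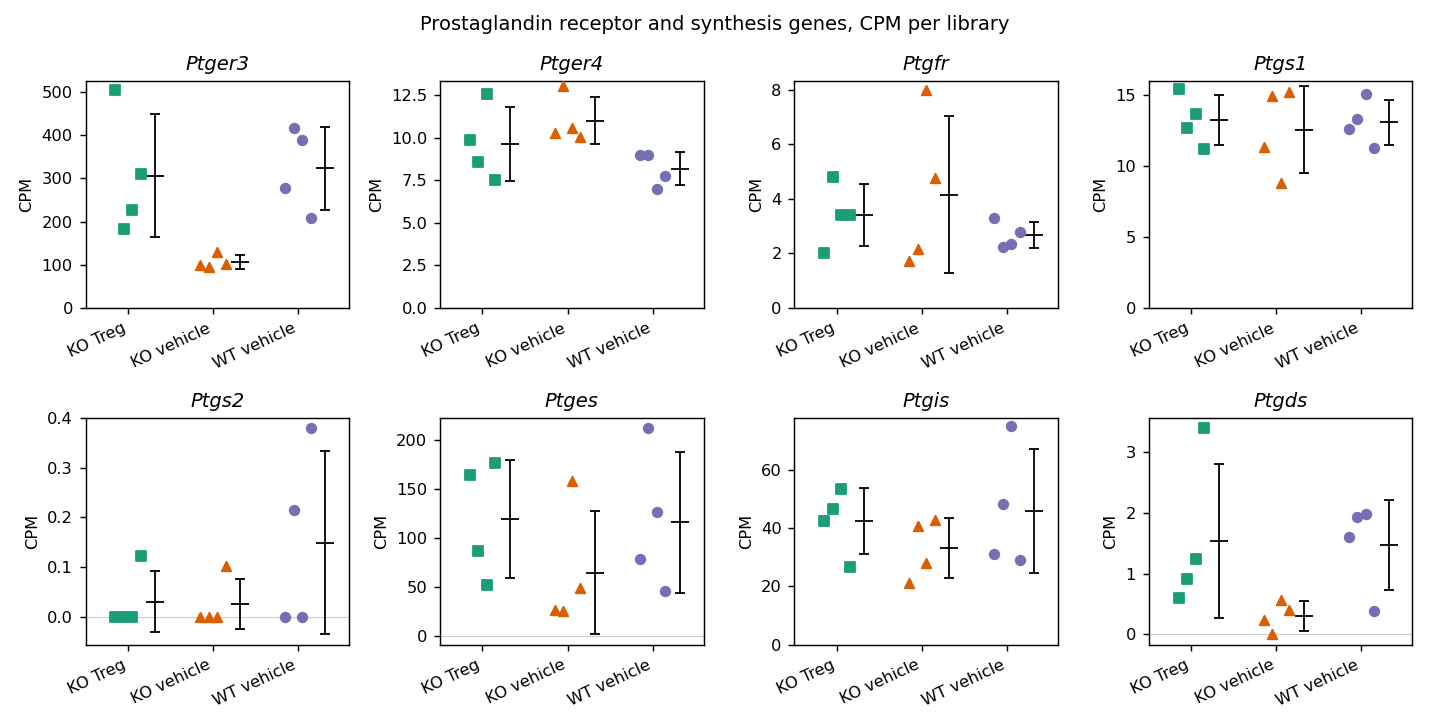
Level of each gene in CPM (y axis from 0) in the 4 libraries of each group (x axis: KO Treg, KO vehicle, WT vehicle; points are libraries 1 to 4 from left to right), with the group mean and SD as black bars. The 4 KO vehicle points of Ptger3, 94.6 to 130 CPM, lie below all others, while Ptgs1 stays between 8.78 and 15.4 CPM throughout.

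In KO Treg against KO vehicle, the Ptger3 difference was 1.52 ± 0.30 on the log2 scale (SE), a 2.88-fold higher level. By edgeR's quasi-likelihood test its unadjusted p was 0.000176, and its adjusted p was 0.248 with Benjamini-Hochberg adjustment over all 12175 genes, so it did not pass the 0.05 threshold. DESeq2, run as an alternative, called it (log2 fold change 1.53, adjusted p = 0.000273). DESeq2 called 64 of 16441 genes in this comparison (0.389%), where edgeR called 1 of 12175 (0.00821%). The adjusted p of Ptger3 ran from 0.000273 to 0.999 over 25 alternative settings, with DESeq2 the lowest. This comparison shares the KO vehicle libraries with the one in which Ptger3 was noticed and is therefore no independent evidence. Within the lower number series alone the value was 1.71 ± 0.34 (adjusted p = 0.489). The higher series has no KO vehicle library. In settings added after seeing the data, the Ptger3 difference was 1.68 ± 0.31 (adjusted p = 0.438) without KO Treg 2 and KO vehicle 1, which held placental transcripts, and 1.62 ± 0.43 (adjusted p = 0.519) without the 3 libraries with the most Ucp1.

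In KO Treg against WT vehicle, Ptger3 differed by -0.08 ± 0.29 on the log2 scale (95% interval -0.64 to 0.49). Its adjusted p there was 0.999992, the value that all 7 genes had in this comparison. In KO vehicle against WT vehicle the log2 difference was -1.60 ± 0.30, and over 25 alternative settings it lay between -1.76 and -1.08. Read against the whole table, groups that do not overlap were found for 5.04% of tested genes in KO Treg against KO vehicle, 1.63% in KO Treg against WT vehicle and 6.51% in KO vehicle against WT vehicle. Since Ptger3 was chosen on that last comparison, nothing is read from its place there.

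Ptger4 was at 9.84, 8.56, 12.6 and 7.53 CPM in KO Treg, 10.3, 13.0, 10.6 and 10.1 CPM in KO vehicle and 9.01, 9.003, 7.01 and 7.73 CPM in WT vehicle. The KO vehicle libraries all lay above the WT vehicle libraries, by a narrow margin (10.1 CPM in KO vehicle 4 against 9.01 CPM in WT vehicle 1), and KO Treg overlapped both. The log2 differences were -0.20 ± 0.19 in KO Treg against KO vehicle (adjusted p = 0.843), 0.22 ± 0.19 in KO Treg against WT vehicle and, as a description, 0.42 ± 0.19 in KO vehicle against WT vehicle. Its exons overlap those of Ttc33 and Gm15937 on the opposite strand. The sources used here do not say whether strand was used in counting, so reads of such pairs cannot be told apart, and the values of these genes are uncertain to that extent. The same holds for Ptgfr (with Gm43618), Ptgs1 (with Gm43621) and Ptgis (with 1110018N20Rik), and, among the genes named further on, for Ptger2, Tbxas1, Lpcat3, Slco2a1, Alox5ap and Ltc4s.

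Ptgfr was at 2.01, 4.80, 3.42 and 3.40 CPM in KO Treg, 1.71, 2.17, 7.99 and 4.77 CPM in KO vehicle and 3.30, 2.25, 2.34 and 2.79 CPM in WT vehicle, from 13 to 71 counts a library. Both the lowest and the highest library were KO vehicle ones. The log2 differences were -0.28 ± 0.41 in KO Treg against KO vehicle (adjusted p = 0.911) and 0.34 ± 0.43 in KO Treg against WT vehicle, each smaller than its error. KO vehicle against WT vehicle was at 0.62 ± 0.42. Without KO vehicle 3, the highest library, KO Treg against KO vehicle was at 0.25 ± 0.38 (adjusted p = 0.878) and KO vehicle against WT vehicle at 0.10 ± 0.39.

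Of the 2 cyclooxygenases, only Ptgs1, the constitutive form, was counted at a usable level. It was at 15.4, 12.7, 13.7 and 11.2 CPM in KO Treg, 11.3, 14.9, 8.78 and 15.2 CPM in KO vehicle and 12.6, 13.3, 15.1 and 11.3 CPM in WT vehicle. The group means were 13.2 ± 1.78, 12.6 ± 3.08 and 13.1 ± 1.59 CPM in KO Treg, KO vehicle and WT vehicle (SD, n = 4 each). The log2 difference was 0.07 ± 0.19 in KO Treg against KO vehicle (95% interval -0.30 to 0.45, adjusted p = 0.955) and 0.02 ± 0.19 in KO Treg against WT vehicle (95% interval -0.35 to 0.40). Ptgs2, the inducible form, had 0, 0, 0 and 1 counts in KO Treg, 0, 0, 0 and 1 in KO vehicle and 0, 2, 0 and 3 in WT vehicle. Each library was at or under the 3 counts that a count of 0 allows (0.241 to 0.539 CPM, counting error only), so no difference in Ptgs2 was detectable at this depth and no fold is given.

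Ptges, the inducible microsomal prostaglandin E synthase, varied 3.38-fold among the KO Treg libraries, 6.30-fold among the KO vehicle libraries and 4.63-fold among the WT vehicle libraries. It was at 165, 86.1, 52.1 and 176 CPM in KO Treg, 26.7, 25.02, 158 and 49.0 CPM in KO vehicle and 78.8, 212, 127 and 45.7 CPM in WT vehicle. KO vehicle 1, 2 and 4 were low and KO vehicle 3 was among the 4 highest of all 12, so that every pair of groups overlapped. Its log2 difference was 0.89 ± 0.71 in KO Treg against KO vehicle (adjusted p = 0.799), 0.05 ± 0.70 in KO Treg against WT vehicle and -0.84 ± 0.71 in KO vehicle against WT vehicle. Without KO vehicle 3, KO Treg against KO vehicle was at 1.85 ± 0.61 (adjusted p = 0.343) and KO vehicle against WT vehicle at -1.79 ± 0.61. Without WT vehicle 2, KO vehicle against WT vehicle was at -0.37 ± 0.73.

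Ptgis, prostacyclin synthase, was at 42.4, 46.6, 53.6 and 26.8 CPM in KO Treg, 21.1, 40.7, 28.1 and 42.9 CPM in KO vehicle and 31.0, 48.2, 75.3 and 29.3 CPM in WT vehicle. The groups overlapped in each comparison. The log2 differences were 0.35 ± 0.32 in KO Treg against KO vehicle (adjusted p = 0.836), -0.11 ± 0.32 in KO Treg against WT vehicle and -0.46 ± 0.32 in KO vehicle against WT vehicle.

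Ptgds, prostaglandin D synthase, was thinly counted. It had 5, 8, 8 and 28 counts in KO Treg, 2, 0, 5 and 4 in KO vehicle and 20, 18, 11 and 3 in WT vehicle. Summed over a group, that is 1.54 CPM (exact 95% Poisson interval 1.14 to 2.03) in KO Treg, 0.296 CPM (0.148 to 0.530) in KO vehicle and 1.48 CPM (1.10 to 1.94) in WT vehicle. The intervals cover counting error only. In CPM each KO vehicle library lay below each KO Treg library, though the gap was narrow (0.593 CPM in KO Treg 1 against 0.563 CPM in KO vehicle 3). WT vehicle 4, at 0.380 CPM, lay within the KO vehicle range. Ptgds had enough counts to test only with WT vehicle in the fit. With KO Treg and KO vehicle alone it had too few. DESeq2 gave it no adjusted p in KO Treg against KO vehicle. Nothing is therefore read from its p in that comparison. The fitted log2 difference was 2.32 ± 0.74 in KO Treg against KO vehicle (unadjusted p = 0.00637, adjusted p = 0.362), 1.57 ± 0.75 without KO Treg 4 and 1.33 ± 0.83 within the lower number series. It was 0.07 ± 0.61 in KO Treg against WT vehicle and -2.25 ± 0.74 in KO vehicle against WT vehicle.

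**Figure D2:**
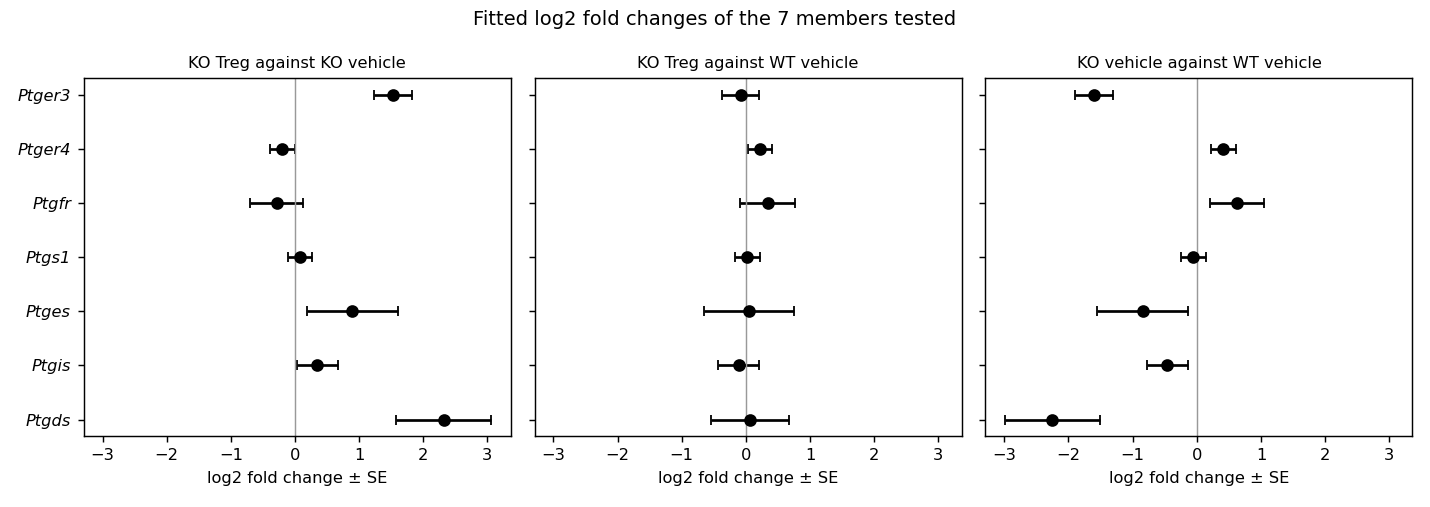
Fitted log2 fold changes (x axis, points; bars are standard errors) of the 7 genes tested (y axis), for KO Treg against KO vehicle, KO Treg against WT vehicle and KO vehicle against WT vehicle. Ptger3 is at 1.52 in the left panel, -0.08 in the middle and -1.60 in the right one. The outer panels share the KO vehicle libraries, so they are not independent.

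Counted together, 0 of the 7 genes passed the adjusted threshold by edgeR in KO Treg against KO vehicle (0.00821% of all tested genes did) and 0 of 7 in KO Treg against WT vehicle (0% of all; DESeq2 called 0.00608%). At an unadjusted p under 0.05 the counts were 2 of 7, Ptger3 and Ptgds, beside 8.77% of all tested genes in the first comparison, and 0 of 7 beside 2.87% in the second. Their median log2 difference was 0.35 in KO Treg against KO vehicle and 0.05 in KO Treg against WT vehicle, where the median of all tested genes was 0.00 in each. KO Treg against KO vehicle shares the KO vehicle libraries in which Ptger3 was noticed. Ptgds had enough counts to test only with WT vehicle in the fit. Neither the count nor the median in that comparison is therefore read as a result about the set. In KO vehicle against WT vehicle, on which the set was chosen, Ptger3 and Ptger4 had groups that did not overlap, in opposite directions, beside 6.51% of all tested genes, and nothing is read from that.

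The other genes of the pathway were followed in 8 lists, 98 genes of which 85 had enough counts. By edgeR 0 of the 85 passed in KO Treg against KO vehicle, 0 in KO Treg against WT vehicle and 0 in KO vehicle against WT vehicle. In that last comparison 34 of all tested genes passed (0.279%; 24 higher and 10 lower). With 1 library left out that count ran from 1 to 125. It was 1 when KO vehicle 1, KO vehicle 2 or else WT vehicle 3 was dropped, 2 when KO vehicle 4 was, 12 to 21 for each of KO Treg 3, KO Treg 4, KO vehicle 3 and WT vehicle 2, 68 for KO Treg 1 and 125 for WT vehicle 4. The count was 0 within the lower number series and with the number series as a covariate. At an unadjusted p under 0.05 there were 8, 1 and 11 of the 85 in these comparisons. That is 9.41%, 1.18% and 12.9%, beside 8.77%, 2.87% and 12.4% of all tested genes. The groups did not overlap for 5, 1 and 7 of the 85, beside 5.04%, 1.63% and 6.51% of all tested genes. DESeq2 called 1 of the 85 in KO Treg against KO vehicle, where it called 0.389% of all genes. It called 2 in KO vehicle against WT vehicle, where it called 1.52% of all genes. The median log2 difference of the 85 was -0.08, -0.01 and 0.09, beside -0.0018, -0.0040 and -0.0039 for all tested genes. On the higher side were 32, 42 and 52 of the 85 (37.6%, 49.4% and 61.2%), beside 49.7%, 49.0% and 49.2% of all tested genes.

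Of the other prostanoid receptors, 4 of 7 were tested. Ptger2, encoding the second receptor for prostaglandin E2 that raises cyclic AMP, averaged 2.88 ± 0.705 CPM in KO Treg, 3.15 ± 0.651 CPM in KO vehicle and 2.24 ± 0.260 CPM in WT vehicle (SD, n = 4 each). KO vehicle and WT vehicle did not overlap, with a log2 difference of 0.50 ± 0.28 (adjusted p = 0.508). Tbxa2r, the thromboxane receptor gene, and Ptgfrn, a membrane protein that binds the prostaglandin F2α receptor, had adjusted p of at least 0.569 in each comparison. Ptger1 had 14 counts in all, and the prostaglandin D2 receptor genes Ptgdr and Ptgdr2 had 21 and 5.

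Of the other synthases, 8 of 10 were tested. Tbxas1, thromboxane synthase, averaged 20.02 ± 6.67 CPM in KO Treg, 28.5 ± 8.76 CPM in KO vehicle and 15.7 ± 1.84 CPM in WT vehicle. Its log2 difference was 0.86 ± 0.24 in KO vehicle against WT vehicle (adjusted p = 0.149) and -0.52 ± 0.24 in KO Treg against KO vehicle (adjusted p = 0.560). Tbxas1 and Ptgs1 are known from platelets and macrophages. The summed level of 7 platelet genes was 94.3 to 129 CPM in KO Treg, 128 to 154 CPM in KO vehicle and 95.7 to 107 CPM in WT vehicle, with Gp1ba at 0 in every library. Most of this sum was Pf4, at 72.9 to 130 CPM over all libraries. The mean log2 CPM of the 4 platelet genes tested was 3.03 to 3.73, 3.48 to 3.96 and 3.39 to 3.72 in these groups, which overlapped. The summed level of 10 macrophage genes was 823 to 1205, 941 to 1277 and 868 to 1007 CPM in these groups. The part of these lists in the Tbxas1 values was not tested. Ptges2 and Ptges3, encoding other prostaglandin E synthases, had adjusted p of at least 0.565.

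Of the genes that release or recycle arachidonate, 15 of 19 were tested. Pla2g4a, cytosolic phospholipase A2, averaged 4.04 ± 1.24 CPM in KO Treg, 7.44 ± 2.004 CPM in KO vehicle and 5.52 ± 0.926 CPM in WT vehicle. KO Treg and KO vehicle did not overlap, at a log2 difference of -0.87 ± 0.26 (adjusted p = 0.307). Pla2g16, the phospholipase A2 of fat cells, averaged 2974 ± 830 CPM in KO Treg, 3461 ± 367 CPM in KO vehicle and 2516 ± 426 CPM in WT vehicle. KO vehicle and WT vehicle did not overlap (log2 difference 0.46 ± 0.19, adjusted p = 0.312). The margin was narrow (3075 CPM in KO vehicle 1 against 2973 CPM in WT vehicle 1). Lpcat3, which puts arachidonate back into phospholipids, differed by -0.37 ± 0.17 in KO Treg against KO vehicle (adjusted p = 0.560).

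All 7 genes of prostaglandin breakdown and transport were tested. Zadh2, a prostaglandin reductase gene, averaged 51.6 ± 12.2 CPM in KO Treg, 33.1 ± 6.49 CPM in KO vehicle and 53.5 ± 14.8 CPM in WT vehicle. Its log2 differences were 0.64 ± 0.21 in KO Treg against KO vehicle (adjusted p = 0.378) and -0.69 ± 0.21 in KO vehicle against WT vehicle (adjusted p = 0.166). The transporter genes Slco2a1 and Abcc4 had adjusted p of at least 0.522. In the lipoxygenase branch, which makes leukotrienes from the same arachidonate, 10 of 12 were tested. Ltc4s, leukotriene C4 synthase, averaged 140 ± 23.2 CPM in KO Treg, 181 ± 43.7 CPM in KO vehicle and 125 ± 17.6 CPM in WT vehicle (KO vehicle against WT vehicle 0.53 ± 0.18, adjusted p = 0.203). Lta4h, which makes leukotriene B4, and Alox5ap, which passes arachidonate to the lipoxygenase, had adjusted p of at least 0.444.

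Of 9 other receptor genes whose products restrain lipolysis, most of them coupled to Gi like that of Ptger3 but with the insulin receptor gene Insr, a tyrosine kinase, among them, 8 were tested. Npy1r, a neuropeptide Y receptor gene, averaged 6.48 ± 1.73 CPM in KO Treg, 4.59 ± 1.29 CPM in KO vehicle and 8.85 ± 1.95 CPM in WT vehicle. KO vehicle and WT vehicle did not overlap, at a log2 difference of -0.93 ± 0.26 (adjusted p = 0.149 by edgeR, 0.0457 by DESeq2). Adra2a, the α2A-adrenergic receptor gene, lay on the same side (-0.99 ± 0.45, adjusted p = 0.377), and Hcar2, the niacin receptor gene, on the other (0.55 ± 0.21, adjusted p = 0.291).

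Of 24 genes of G protein and cyclic AMP signalling, the Gq-class subunit genes Gnaq and Gna11 included, 23 were tested. Rgs2, a regulator of G protein signalling, was at 140, 154, 73.8 and 79.2 CPM in KO Treg, 27.2, 56.2, 55.5 and 72.3 CPM in KO vehicle and 174, 155, 156 and 94.6 CPM in WT vehicle. As with Ptger3, every KO vehicle library lay below every other library, by a narrow margin from KO Treg 3 (73.8 CPM there against 72.3 CPM in KO vehicle 4). The log2 difference of Rgs2 was 1.08 ± 0.31 in KO Treg against KO vehicle (adjusted p = 0.339 by edgeR, 0.0489 by DESeq2). It was -0.37 ± 0.31 in KO Treg against WT vehicle and -1.46 ± 0.32 in KO vehicle against WT vehicle. In KO vehicle against WT vehicle its adjusted p was 0.0836 by edgeR, 0.000329 by DESeq2 and 0.0400 by edgeR without WT vehicle 4. Over 25 alternative settings this adjusted p ran from 0.000329 to 0.443 and was under 0.05 in no other. Without WT vehicle 4, edgeR called 125 of 12332 genes in that comparison. Gnai1, an inhibitory G protein subunit, averaged 108 ± 15.2 CPM in KO Treg, 130 ± 13.95 CPM in KO vehicle and 92.2 ± 13.998 CPM in WT vehicle (KO vehicle against WT vehicle 0.49 ± 0.14, adjusted p = 0.157). Adcy5, an adenylyl cyclase, averaged 65.9 ± 19.3 CPM in KO Treg, 119 ± 21.5 CPM in KO vehicle and 82.5 ± 39.1 CPM in WT vehicle. KO Treg lay below KO vehicle without overlap, at a log2 difference of -0.85 ± 0.29 (adjusted p = 0.414). The margin was narrow (87.96 CPM in KO Treg 3 against 89.2 CPM in KO vehicle 2). WT vehicle 4, at 140.5 CPM, lay above every KO vehicle library.

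All 10 lipolysis genes were tested. Aqp7, the glycerol channel of fat cells, averaged 31.3 ± 5.47 CPM in KO Treg, 44.4 ± 4.46 CPM in KO vehicle and 28.1 ± 7.16 CPM in WT vehicle. KO vehicle overlapped neither of the others (0.65 ± 0.18 against WT vehicle, adjusted p = 0.138, and KO Treg against KO vehicle -0.51 ± 0.18, adjusted p = 0.424). Pnpla2, the adipose triglyceride lipase, averaged 2499 ± 142 CPM in KO Treg, 3150 ± 497 CPM in KO vehicle and 2695 ± 323 CPM in WT vehicle (KO Treg against KO vehicle -0.33 ± 0.14, adjusted p = 0.510). Plin1, the lipid droplet coat protein gene, had adjusted p of at least 0.626.

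**Figure D3:**
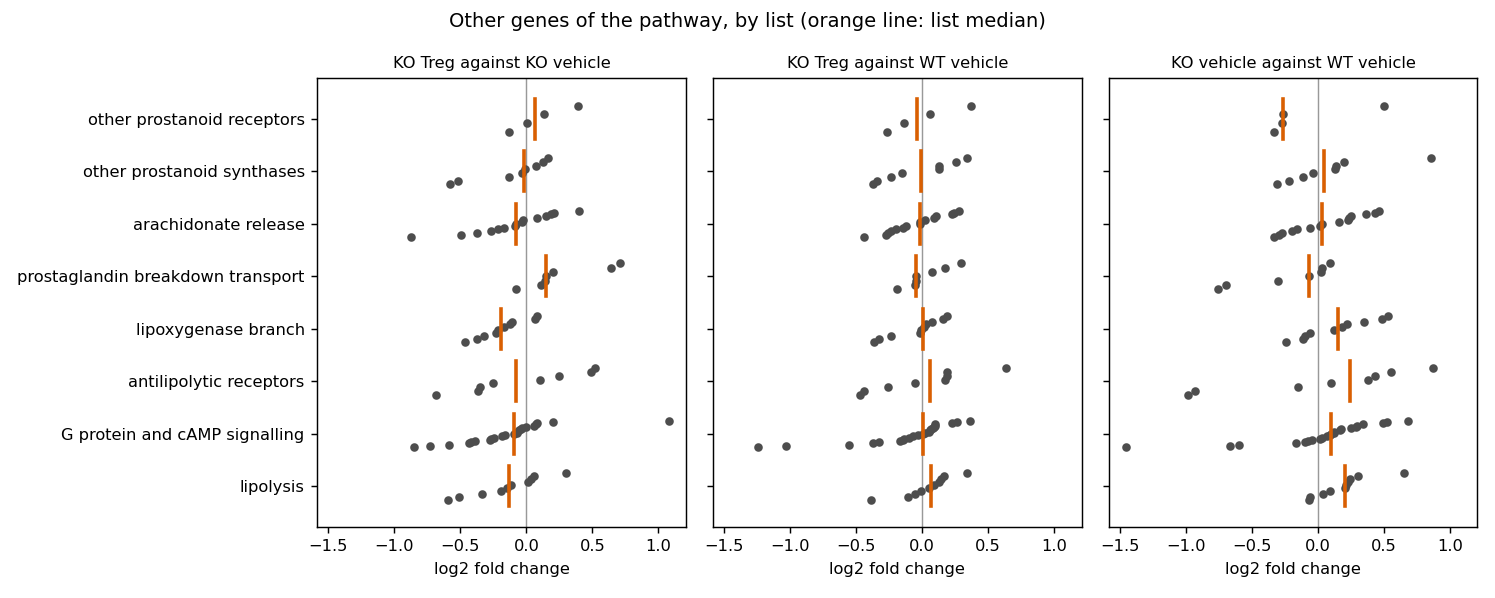
Fitted log2 fold changes (x axis) of the 85 other pathway genes tested, 1 point a gene, by list (y axis), for the 3 comparisons. The orange line is the list's median, and the point farthest left in the right panel, at -1.46, is Rgs2.

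Across the 12 libraries, the 7 genes were set against 13 lists of marker genes, each list given as its mean log2 CPM over the genes tested. Of the 91 pairs, 5 passed the 0.05 threshold by Pearson's r with a permutation p (100000 resamples, Benjamini-Hochberg over the 91), 3 by Spearman's rho, and 2 when the group means were first taken off. Both of those 2 belong to Ptges. The deviations from group means were permuted over all 12 libraries without regard to group, although taking off the means leaves them less free to vary. Their p-values are therefore somewhat too small.

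Ptges followed the lipogenic list, 10 genes of fatty acid synthesis such as Fasn and Acly. Its r was 0.978 and rho 0.958 (permutation p = 1e-05, the smallest these permutations can give; adjusted p = 0.00091). Without KO vehicle 1 and KO vehicle 2, the libraries farthest from the median of the list, r was 0.962. On deviations from group means it was 0.974, and within the 8 libraries of the lower number series it was 0.979. KO vehicle 3, the KO vehicle library with high Ptges, had a list mean of 9.79 log2 CPM. KO vehicle 1, 2 and 4 had 7.31, 7.45 and 8.03. Ptges also followed the adipocyte list of 10 genes, with r of 0.892 and rho of 0.832 (adjusted p = 0.00455 and 0.0409). Its r was 0.786 without KO vehicle 1 and KO vehicle 2 and 0.854 on deviations. With the lipogenic list mean as a covariate, a setting added after seeing the data, the log2 difference of Ptges was -0.20 ± 0.18 in KO Treg against KO vehicle and 0.23 ± 0.18 in KO vehicle against WT vehicle. At an r of 0.978 this covariate takes out most of the variation of Ptges whatever the groups do. The part of the list in the Ptges group differences was therefore not tested.

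Ptger3 followed the same list, with r of 0.822 and rho of 0.839 (adjusted p = 0.0293 and 0.0409). Its r was 0.701 without KO vehicle 1 and KO vehicle 2, 0.786 on deviations from group means (adjusted p = 0.0749), and 0.886 in the lower number series. The pooled value includes the low KO vehicle libraries on which Ptger3 was noticed. KO vehicle 3 departed from it. Its list mean of 9.79 lay above those of WT vehicle 1, 3 and 4 at 9.33, 9.55 and 8.46. It had 130 CPM of Ptger3, against 278, 389 and 209 CPM in those. The summed level of the lipogenic genes was 7910 to 43037 CPM in KO Treg, 3996 to 30847 CPM in KO vehicle and 9530 to 46826 CPM in WT vehicle. With the list mean as a covariate, Ptger3 differed by 0.95 ± 0.23 in KO Treg against KO vehicle (adjusted p = 0.999) and by -1.08 ± 0.23 in KO vehicle against WT vehicle. That fit called 0 of 12175 genes in each comparison, so its adjusted p does not show that the Ptger3 difference was gone.

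The adipocyte genes summed to 71453 to 96760 CPM in KO Treg, 66837 to 85204 CPM in KO vehicle and 84241 to 101599 CPM in WT vehicle. The r of Ptger3 with that list was 0.705 (adjusted p = 0.127). Ptger3 is also known from mast cells. The 10 mast cell genes summed to 23.8 to 31.7 CPM in KO Treg, 17.9 to 29.05 CPM in KO vehicle and 29.14 to 47.1 CPM in WT vehicle. In this sum KO vehicle and WT vehicle were apart by a narrow margin (29.05 CPM in KO vehicle 2 against 29.14 CPM in WT vehicle 4). In the list's mean log2 CPM they overlapped (up to 2.05 in KO vehicle, from 2.02 in WT vehicle). Of the 10 genes, 6 had enough counts to test, and Ms4a2, Fcer1a, Tpsab1 and Mrgprb1 were at 0 in at least 1 library. The r of Ptger3 with the mast cell list was 0.690 (adjusted p = 0.127) and 0.242 on deviations from group means. The part of either list in the Ptger3 values was not tested.

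**Figure D4:**
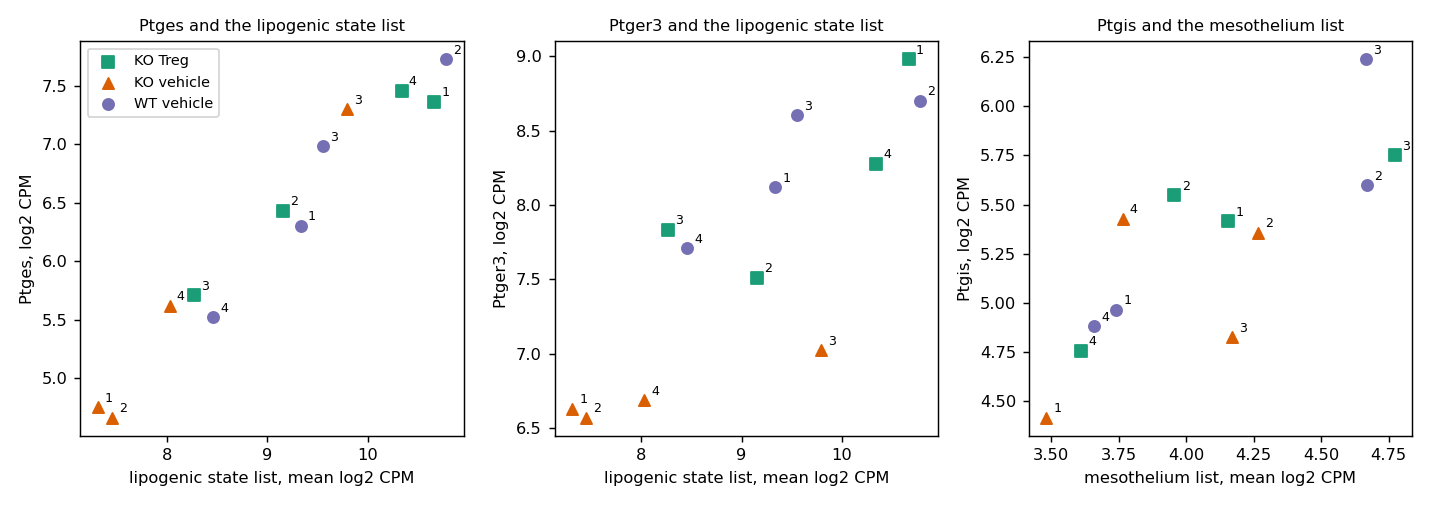
Level of Ptges and Ptger3 (y axis, log2 CPM) against the mean log2 CPM of the lipogenic list (x axis), and of Ptgis against the mesothelium list. Each point is a library, numbered within its group. Ptges lies near one line in every group (r = 0.978), whereas KO vehicle 3 lies well under the Ptger3 levels of libraries with a like list mean.

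Ptgis followed the mesothelium list, of which 9 of 10 genes were counted, such as Msln and Upk3b. Its r was 0.805 and rho 0.790 (adjusted p = 0.0293 and 0.0826). Its r was 0.804 without KO Treg 3 and WT vehicle 2, 0.791 on deviations from group means (adjusted p = 0.0839) and 0.627 in the lower number series. The list summed to 156 to 359 CPM in KO Treg, 160 to 249 CPM in KO vehicle and 160 to 325 CPM in WT vehicle, overlapping in every pair of groups. Its part in the Ptgis values was not tested. Ptgds had an r of 0.818 and rho of 0.748 with the adipocyte list (adjusted p = 0.0293 and 0.108). Its r was 0.601 without KO vehicle 1 and KO vehicle 2 and 0.690 on deviations (adjusted p = 0.226). Ptgds had only 0 to 28 counts a library, with 0 to 5 in KO vehicle. It had enough counts to test only with WT vehicle in the fit. Nothing is therefore read from this pair. Ptger4, Ptgfr and Ptgs1 passed with none of the 13 lists. The T cell genes summed to 5.28 to 9.82 CPM in KO Treg, 4.68 to 14.2 CPM in KO vehicle and 6.65 to 13.3 CPM in WT vehicle, and the r of Ptger3 with that list was -0.24. Of the 10 T cell genes, 9 were counted and 3 had enough counts to test. Foxp3 had 0 to 4 counts a library and Ctla4 0 to 1, so nothing about T cells is read from this list.

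**Figure D5:**
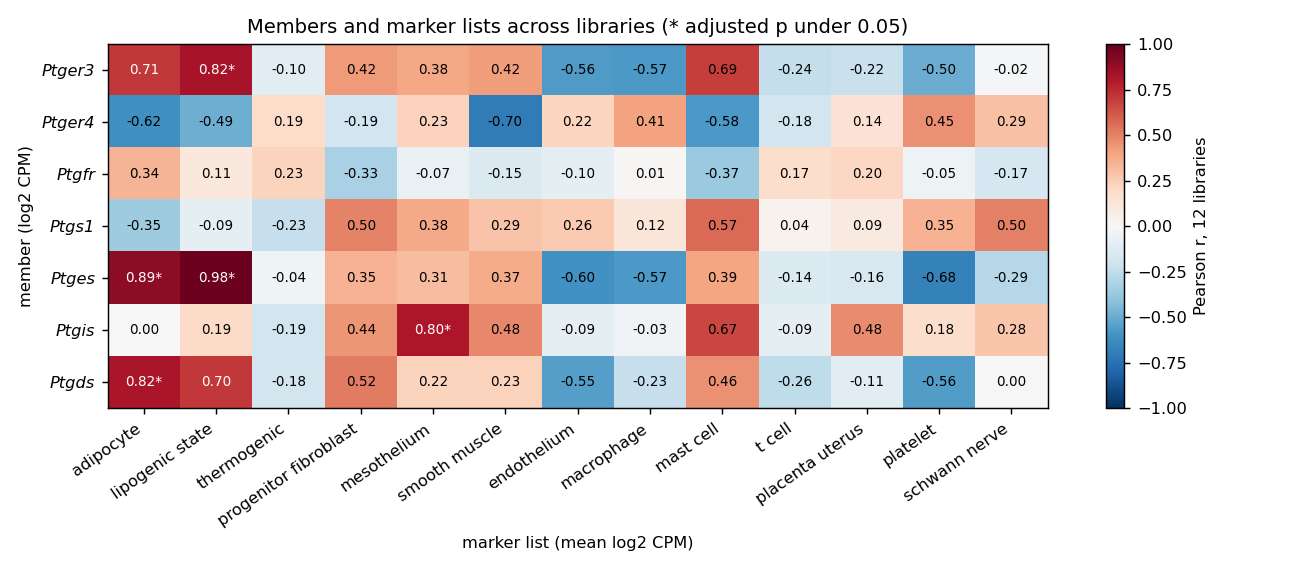
Pearson's r over the 12 libraries between each gene tested (rows, log2 CPM) and each marker list (columns, mean log2 CPM); red is positive, blue negative, and a star marks an adjusted permutation p under 0.05. The stars are at Ptges with the lipogenic (0.98) and adipocyte (0.89) lists, Ptger3 with the lipogenic list (0.82), Ptgds with the adipocyte list (0.82) and Ptgis with the mesothelium list (0.80). Nothing is read from the star of Ptgds, which had only 0 to 28 counts a library.

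The genes most like each of the 7 were found by r of log2 CPM over the 12 libraries, among genes with a mean of at least 5 CPM (9627 of them for Ptger3), and are given as a description. For Ptger3 they were Mdh1, cytosolic malate dehydrogenase (r = 0.959, rho = 0.895), and Isyna1, which makes inositol phosphate from glucose phosphate (0.951 and 0.958). Next came Usp20, a deubiquitinase gene (0.928 and 0.944), Gsta3, a glutathione transferase (0.927 and 0.930), and Nrgn, neurogranin (0.924 and 0.916). After group means were taken off, r was 0.916 for Isyna1, 0.909 for Gsta3, 0.854 for Usp20, 0.844 for Mdh1 and 0.705 for Nrgn.

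For Ptges the most alike were Acly, ATP citrate lyase (r = 0.991, rho = 0.979), and Thrsp, a lipogenic regulator (0.986 and 0.965), both of them genes of the lipogenic list. Over the 12 libraries Acly ran from 91.7 to 3440 CPM and Thrsp from 385 to 6266 CPM, while Ptges ran from 25.02 to 212 CPM. For Ptgis they were Ngfrap1 (r = 0.922) and Bace2 (0.904), for Ptgfr Cdca7l (0.920) and Dnajc4 (0.915), and for Ptgds Tctex1d2 (0.929) and Hddc3 (0.927). For Ptger4 they were Tmem2 (0.850) and 4930486L24Rik (0.817), and for Ptgs1 Myof (0.832) and Pld1 (0.816). Mdh1, Cdca7l and Hddc3 have exons that overlap another gene on the opposite strand, and 4930486L24Rik on its own strand.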

How the data were processed

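Total RNA of gonadal white fat from 12 mice was made into 3′ QuantSeq libraries, per the labels' protocols. The deposited files hold whole-number read counts per gene symbol, not normalized, made by the authors; the submitters' processing notes name BWA 0.7.12, SAMtools 1.3.1, TopHat2 2.1.1, HTSeq 0.6.1 and mm10, while the sources used here name neither the annotation nor the use of strand. A 3′ count is not divided by gene length, so levels were compared between samples only.

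Genes were filtered with filterByExpr (12175 of 20632 kept; 4160 were at 0 in all libraries) and fitted in edgeR 4.0.16 (R 4.3.3; TMM, robust quasi-likelihood test, the 3 groups in 1 fit, Benjamini-Hochberg, threshold 0.05). CPM use TMM-scaled totals; log2 CPM add a prior count of 2. The fit was tested on simulated counts. Alternatives used limma 3.58.1 and DESeq2 1.42.0, other scalings and filters, and each library left out. Within groups the smallest ratio of chi-square to its degrees of freedom between 2 libraries was 14.3 over 18 pairs, so no library was counted as a repeat. Replicate numbers follow the order of deposit and pair nothing. Each library has a title number of its own, and p-values measure only the spread between these samples.

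The members and lists were chosen with earlier results of these data known. Named beside the members are pathway genes with an adjusted p under 0.05 by edgeR and up to 3 a list with the smallest p in any comparison, and by likeness 5 genes for Ptger3 and 2 for each other tested member. Rgs2 and Npy1r fall under this rule.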

Additional observations from a re-analysis of the deposited data

Results flagged for a closer look

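Some values stood apart from the other 3 libraries of their group by Dixon's criterion for 4 samples. Ptgs2 in KO Treg 4 was at 0.121 CPM and Ptgs2 in KO vehicle 4 at 0.102 CPM, each resting on 1 count where the other 3 libraries of the group had 0. The criterion was applied to 24 groups of 4 (8 genes in 3 groups). Counts of 0, 0, 0 and 1 always pass it, so its usual chance rate of about 1 group in 20 does not apply to them.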

How the results depend on the processing

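Of the members, 0 passed by edgeR in either tested comparison in every setting run with it or limma; DESeq2 gave 1, Ptger3, in KO Treg against KO vehicle. Of the other pathway genes edgeR called 0 in each comparison, and DESeq2 called 1 in KO Treg against KO vehicle and 2 in KO vehicle against WT vehicle. By edgeR with 1 library left out, the count in KO vehicle against WT vehicle ran from 0 to 1 (Rgs2, without WT vehicle 4). The count of gene and marker list pairs that passed, 5, was 2 on deviations from group means and ran from 2 to 6 with 1 library left out; both Ptges pairs passed in each case. Some members turned sign, among them Ptges with differences as large as 0.89 and -0.84, and the cause was not tested. KO Treg against WT vehicle was at -0.0245 for Ptgs1 with limma, at -0.0572 for Ptgds with the number series as a covariate, at -0.21 for Ptges, 0.18 for Ptgis and -1.20 for Ptgds within the lower number series, at 0.10 for Ptger3 without the libraries with placental transcripts, and at -0.0941 for Ptges without the 3 libraries with the most Ucp1; KO Treg against KO vehicle was at -0.20 for Ptges with the lipogenic covariate (KO vehicle against WT vehicle at 0.23) and at 0.0754 for Ptgfr without the 3 Ucp1 libraries. The settings with placental or Ucp1 libraries left out and the covariate were chosen after seeing the data. With 1 library left out, KO Treg against KO vehicle ran from -0.53 to 0.25 for Ptgfr and from -0.0498 to 0.20 for Ptgs1, and KO Treg against WT vehicle from -0.0598 to 0.10 for Ptgs1, -0.21 to 0.52 for Ptges, -0.43 to 0.11 for Ptger3, -0.27 to 0.23 for Ptgis and -0.69 to 0.34 for Ptgds. Over all settings Ptger3 in KO Treg against KO vehicle stayed between 0.95 and 1.71. DESeq2 called 64 genes in KO Treg against KO vehicle and 250 in KO vehicle against WT vehicle, where edgeR called 1 and 34. Depth limits Ptgs2 and Ptgds most. No paired analysis was possible because the labels give the groups no shared replicate numbers.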
